A study of Mus musculus with 3 samples.

Results

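The 10 core circadian clock genes Clock, Arntl, Per1, Per2, Per3, Cry1, Cry2, Nr1d1, Nr1d2 and Dbp were taken by name from the 22359 protein-coding genes with an annotated start. Every peak of accessible chromatin within these genes, or within 10 kb of them on either side, was collected from mouse islets of Langerhans with and without loss of Taf4, part of TFIID, a general factor needed for transcription. Accessibility was measured by ATAC-seq, in which a transposase inserts sequencing adapters into open chromatin, in cells dissociated from isolated islets. There were 3 libraries. The WT library came from mice labelled wild type, the 1 week library from mice labelled Taf4 KO and studied 1 week after inactivation, and the 5 weeks library from Taf4 KO mice at 5 weeks, all of the strain spelled C5LBl6 in the labels. By the study's methods, adult animals carried a tamoxifen-inducible Cre recombinase driven by an insulin gene promoter and floxed Taf4 alleles. Control animals there had the same Cre and tamoxifen injections with intact Taf4. The label of the WT library itself states only its genotype. The study reports that glucagon-expressing alpha cells keep Taf4 in this model. The Taf4 KO libraries therefore mix beta cells that lost Taf4 with cells that kept it. The number of mice behind a library and the time of day at which islets were taken are not given in the sources used here. Each group had 1 library. No p-value was therefore computed, and the values compare libraries rather than groups of animals.

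The circadian clock is a feedback loop of transcription that runs in nearly every cell. Clock and Arntl (also called BMAL1) pair to activate genes through a short DNA element, the E-box. Among those genes are the Per and Cry genes, whose proteins return to the nucleus and hold Clock and Arntl back. The nuclear receptors Nr1d1 and Nr1d2 (REV-ERB alpha and beta) repress Arntl through ROR elements, and Dbp carries the rhythm to further genes through D-boxes. In beta cells the clock is known to support insulin secretion in response to glucose.

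The letters of the promoters show where these elements lie. Sequences were read from mm9 on the strand of each gene, 5′ to 3′, with the element in capitals. The E-box was searched as CACGTG, the D-box as TTANGTAA and the ROR element as AAGGTCA or TAGGTCA, on both strands. Below are the 250 bases before the outermost start for the 5 members that held such a match there: an E-box in Per1 (chr11:68908469-68908718, plus strand) and Cry1 (chr10:84647800-84648049, minus strand), a D-box in Per2 (chr1:93355908-93356157, minus strand), a pair of D-boxes in Per3 (chr4:150418775-150419024, minus strand) and a ROR element in Dbp (chr7:52960208-52960457, plus strand).
Per1: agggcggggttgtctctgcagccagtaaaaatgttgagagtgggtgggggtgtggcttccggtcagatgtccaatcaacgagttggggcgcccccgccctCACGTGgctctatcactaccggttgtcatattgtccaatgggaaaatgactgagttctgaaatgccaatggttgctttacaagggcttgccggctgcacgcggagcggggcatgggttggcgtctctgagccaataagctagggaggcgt
Cry1: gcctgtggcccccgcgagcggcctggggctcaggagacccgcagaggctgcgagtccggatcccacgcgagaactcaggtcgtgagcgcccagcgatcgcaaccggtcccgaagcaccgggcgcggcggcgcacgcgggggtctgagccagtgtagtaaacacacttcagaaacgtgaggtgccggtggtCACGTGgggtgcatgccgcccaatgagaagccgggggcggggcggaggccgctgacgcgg
Per2: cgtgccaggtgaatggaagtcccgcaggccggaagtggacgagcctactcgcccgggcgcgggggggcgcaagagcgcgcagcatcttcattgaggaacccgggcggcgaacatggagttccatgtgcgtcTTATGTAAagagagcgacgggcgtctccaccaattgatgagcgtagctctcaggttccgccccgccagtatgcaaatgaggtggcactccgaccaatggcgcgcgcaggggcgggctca
Per3: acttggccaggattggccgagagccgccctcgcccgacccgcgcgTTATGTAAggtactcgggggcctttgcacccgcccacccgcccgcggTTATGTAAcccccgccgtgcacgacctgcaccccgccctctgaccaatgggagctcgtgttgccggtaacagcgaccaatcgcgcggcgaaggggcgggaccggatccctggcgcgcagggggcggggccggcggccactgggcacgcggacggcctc
Dbp: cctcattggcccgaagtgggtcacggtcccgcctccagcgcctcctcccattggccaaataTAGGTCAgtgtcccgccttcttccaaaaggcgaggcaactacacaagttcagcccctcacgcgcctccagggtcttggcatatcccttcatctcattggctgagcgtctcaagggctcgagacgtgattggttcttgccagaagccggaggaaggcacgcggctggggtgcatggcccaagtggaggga
In such windows of all coding genes, 6.54% held an E-box, 1.98% a D-box and 5.52% a ROR element. The cAMP response element, searched as TGACGTCA, was in 0 of 10 member windows and 1.94% of all windows, and no matches overlapped one another. All 5 windows lay wholly inside a peak in each of the 3 libraries.

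Other elements lay further inside the accessible regions of the clock genes. The WT promoter peak of Nr1d1 held 5 E-boxes. Relative to the start they stood at -367, 1174, 1454, 1469 and 2290 bp, and are shown with 20 bases on each side in that order (chr11:98636989-98637034, chr11:98635448-98635493, chr11:98635153-98635213 with a pair, and chr11:98634332-98634377, minus strand). The next line is the E-box in the peak upstream of Nr1d1 (chr11:98644836-98644881, minus strand).
Nr1d1 before the start: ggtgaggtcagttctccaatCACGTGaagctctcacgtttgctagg
Nr1d1 inside, nearest: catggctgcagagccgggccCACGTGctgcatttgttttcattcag
Nr1d1 inside, pair: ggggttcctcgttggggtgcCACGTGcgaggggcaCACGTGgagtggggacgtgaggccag
Nr1d1 inside, farthest: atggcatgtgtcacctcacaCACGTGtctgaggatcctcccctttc
Nr1d1 upstream peak: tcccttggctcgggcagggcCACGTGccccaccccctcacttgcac
The promoter peak of Nr1d2 held 3 E-boxes inside the gene (chr14:19071019-19071212, minus strand), and a region within Dbp held 2 (chr7:52963062-52963220, plus strand).
Nr1d2: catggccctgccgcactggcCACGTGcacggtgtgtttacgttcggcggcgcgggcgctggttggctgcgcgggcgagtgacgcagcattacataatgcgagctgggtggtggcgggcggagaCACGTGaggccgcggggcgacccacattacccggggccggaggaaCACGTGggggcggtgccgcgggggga
Dbp: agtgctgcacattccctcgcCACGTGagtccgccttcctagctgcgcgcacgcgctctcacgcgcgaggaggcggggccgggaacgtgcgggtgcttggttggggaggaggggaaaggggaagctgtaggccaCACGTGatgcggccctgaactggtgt
The intron of Cry1 held a pair of ROR elements in a region called in the Taf4 KO libraries (chr10:84624638-84624735, minus strand), and an intron of Arntl held a pair in a region called in all libraries (chr7:120394444-120394505, plus strand).
Cry1: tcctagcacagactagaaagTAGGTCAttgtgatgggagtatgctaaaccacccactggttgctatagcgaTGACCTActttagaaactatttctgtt
Arntl: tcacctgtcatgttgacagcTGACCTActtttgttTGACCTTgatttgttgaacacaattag
Windows of the same length and placement as the WT promoter peak of Nr1d1 held at least 5 E-boxes at 17 of 22359 coding genes, or 0.0760%. For the 3 E-boxes of Nr1d2 the share was 0.666%, for the 2 E-boxes in the Per1 peak 2.08%, for the 2 D-boxes in the Per3 peak 0.818% and for the single E-box of Cry1 27.2%. Each window and count was set from the member's own peak, and that member is among the genes counted. The WT promoter peaks of Clock, Arntl, Per2, Per3, Cry2 and Dbp held 0 E-boxes. A match is a description of the letters and not a measured binding site.

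The libraries differed in depth, and this bears on every value that follows. The lists held 60898 peaks in WT, compared with 150354 at 1 week and 151725 at 5 weeks. The background read depth recovered from them was 3.66, 6.45 and 9.38 reads, 1.76 and 2.57 times the WT value at 1 and 5 weeks. Fold over local background and -log10 q belong to their own list. Peaks were therefore compared between libraries by position, width and percentile, the rank of the -log10 q within the list. A percentile is relative to list length, so the same place from the top gives a higher percentile in the longer Taf4 KO lists. Taf4 (Taf4a in the annotation) kept a promoter peak in every list, at percentile 76.2 in WT, 9.15 a week after inactivation and 81.1 at 5 weeks, a call that does not measure the deletion. As a check of the tissue, all 6 beta cell markers had a promoter peak in every list. Of 4 alpha cell markers 3, 3 and 4 had one, and of 2 delta cell markers 0, 1 and 2. Acinar markers numbered 0, 0 and 1 of 4, endothelial 1, 2 and 3 of 4, stellate and fibroblast 0, 0 and 3 of 4, and immune 0, 1 and 0 of 4, so at 5 weeks, the deepest library, more markers of non-endocrine cells had a call. Their part in the results was not tested.

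All 10 clock genes had an accessible promoter in all 3 libraries. A promoter peak, meaning a peak that touched the window from 1000 bp before to 100 bp after any coding start, was called at 10 of 10 members in each list (exact 95% interval 69.2 to 100%, covering counting only). Over all coding genes it was called at 59.0%, 55.9% and 65.6%, and in all 3 lists at 50.4%. Promoter peaks present in WT were absent at 14.5% of genes at 1 week and at 1.89% at 5 weeks, and at 0 of 10 clock genes at either time. In bulk islet cells, a difference in the share of a cell type and a difference in its chromatin cannot be told apart.

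In WT the clock promoters stood high and wide in their list. Their median percentile was 94.0, against 85.1 for all coding genes with a promoter peak, and 9 of the 10 lay above that median, with Dbp below it. Their median width was 1736 bp against 1010 bp. The median fold over background was the other way round, 3.86 against 4.29. The height of the peaks at their summits was not measured. At 1 week the median percentile of the clock promoters was 85.7, against 87.7 for all genes, and 4 of 10 lay above it. At 5 weeks the medians were 93.4 and 89.7, and 8 of 10 lay above.

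**Figure D1:**
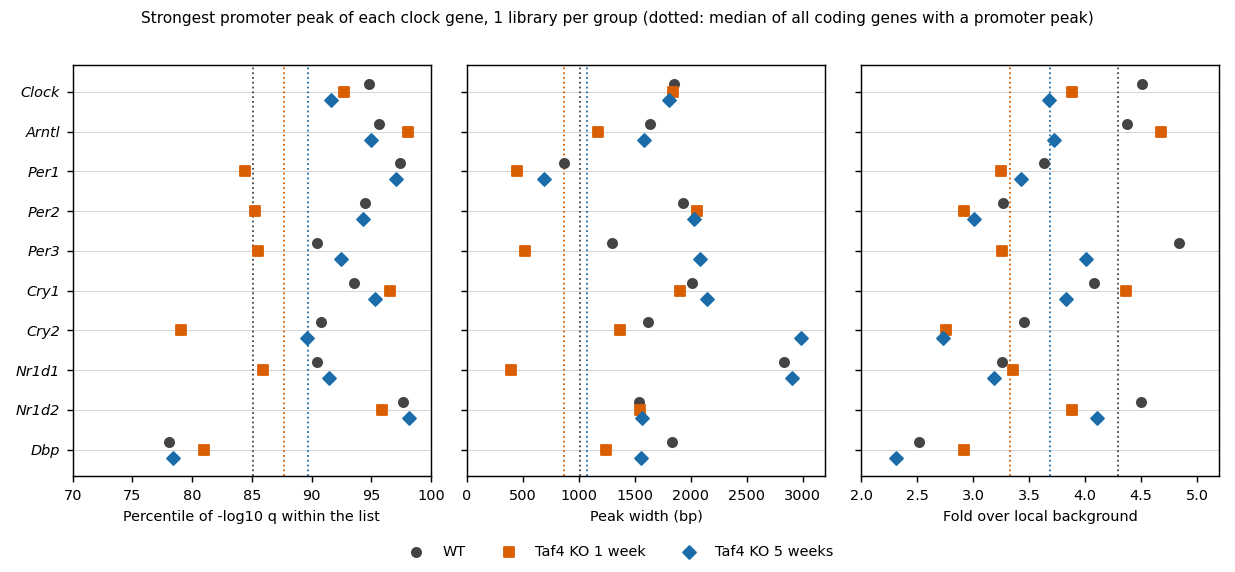
Percentile of the -log10 q within its list, width in bp and fold over local background (horizontal axes) of the strongest promoter peak of each clock gene, 1 point per library; dotted lines mark the medians over all coding genes with a promoter peak. In WT 9 of 10 points lie right of the median percentile of 85.1, at 1 week 4 of 10 lie right of 87.7, and the 1 week width of Nr1d1 is 390 bp against 2831 bp in WT; the 1 week point of Per1 is the peak at an inner start.

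Clock and Arntl, the activators, kept strong promoters in every library. The Clock promoter peak (gene at chr5:76639992-76733817, minus strand) was 1849 bp wide in WT against 1836 bp at 1 week and 1809 bp at 5 weeks. Its -log10 q was 19.6, 8.59 and 14.6, at percentiles 94.8, 92.7 and 91.6, and its fold 4.504, 3.88 and 3.67. The position and width of this peak were thus nearly the same in the 3 lists, and its rank was highest in WT. The Arntl promoter peak (gene at chr7:120350979-120457636, plus strand) measured 1637 bp, 1171 bp and 1584 bp, with a -log10 q of 20.7, 14.9 and 18.5 at percentiles 95.6, 98.1 and 94.98. At 1 week its downstream edge lay 425 bp after the start, against 987 bp in WT and 976 bp at 5 weeks. Its fold was 4.38 in WT, compared with 4.68 at 1 week and 3.73 at 5 weeks. These are ratios to WT of 1.07 and 0.852, beside medians over all genes of 0.813 and 0.905.

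Both activator genes had strong peaks far inside their introns. In Clock, a region 23874 bp after the start (chr5:76709626-76710260) stood at percentile 92.4 in WT against 99.4 at 1 week and 99.3 at 5 weeks, with folds of 6.81, 5.98 and 6.13 that exceeded those of the Clock promoter in each list. It contained 1 ROR element. In Arntl, a row of 4 intronic regions was called in every list. The one at chr7:120383094-120383699 had the largest difference in rank, at percentile 53.9 in WT, compared with 98.7 at 1 week and 92.5 at 5 weeks, with folds of 3.10, 5.35 and 3.97. The 3 others, at chr7:120386098-120386651, chr7:120394200-120394922 and chr7:120397075-120397767, lay between percentiles 67.2 and 75.3 in WT, between 88.1 and 90.3 at 1 week and between 86.4 and 88.8 at 5 weeks. All 4 thus stood at higher percentiles in the Taf4 KO lists, which held more peaks, than in WT. Over all genes a comparison was at hand for promoter peaks only, in 5 groups by WT rank. In the lowest group, up to percentile 70.2, the median change was 24.2 points at 1 week and 24.5 at 5 weeks. In the next, up to 83.0 and so covering the WT percentile of 75.3, it was 9.10 and 10.6. Near the far end of the gene 2 further regions, at chr7:120432752-120433108 and chr7:120434682-120435103, were called at 1 and 5 weeks and not in WT. Their -log10 q was 4.499 and 2.87 at 1 week and 8.60 and 8.21 at 5 weeks.

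Of the Per genes, the repressors induced by the activators, all 3 had a lower ranked promoter peak at 1 week than in WT. Of all genes with a promoter peak in the 3 lists, 40.1% were lower at 1 week. In the WT rank group of Per2 and Per3 the share was 54.04%, and in that of Per1 it was 71.2%. Per1 (chr11:68908719-68923462, plus strand) has several starts, and the peak over the outermost one stood at percentile 97.4 in WT against 75.4 at 1 week and 97.03 at 5 weeks. Its -log10 q was 23.9, 3.44 and 22.1 and its width 869 bp, 570 bp and 687 bp. The E-box shown above and another at -334 bp lay within this peak in every list. Another region, centred 4201 bp after the outermost start, covered an inner one (chr11:68912074-68913765). It was 1 peak of 1632 bp at percentile 73.6 in WT and 1 peak of 1635 bp at percentile 89.1 at 5 weeks, but a pair of separate peaks of 450 and 262 bp at 1 week, at percentiles 84.5 and 71.8. At 1 week the inner start, and not the outermost one, thus had the stronger Per1 peak.

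Per2 (chr1:93312561-93355907, minus strand) kept the full extent of its promoter peak, 1928 bp in WT, compared with 2055 bp at 1 week and 2025 bp at 5 weeks. Its -log10 q was 19.1, 5.33 and 17.5, at percentiles 94.4, 85.2 and 94.3, so rank and not extent was lower at 1 week. Per3 (chr4:150377761-150418774, minus strand) differed in extent as well. The peak over its start and D-boxes measured 1296 bp in WT against 519 bp at 1 week and 2081 bp at 5 weeks, at percentiles 90.4, 85.5 and 92.4. At 1 week another peak of 232 bp (chr4:150417506-150417737) stood apart from it at percentile 93.5, 1152 bp into the gene, in a stretch that the 5 weeks peak covered without a break and the WT peak did not reach. The fold of the start peak was 4.84, 3.26 and 4.01.

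The Cry genes, which encode the other repressors, differed in the direction of their percentile change from WT. At 1 week the change was 3.01 points at Cry1 and -11.7 at Cry2, beside a median of 2.01 over all genes. At 5 weeks the changes were 1.76 and -1.15, both below the median of 4.75. Cry1 (chr10:84594447-84647799, minus strand) had a promoter peak of 2007 bp in WT, compared with 1907 bp at 1 week and 2143 bp at 5 weeks, with a -log10 q of 18.1, 12.2 and 18.98. Its percentile was 93.5, 96.6 and 95.3, higher in both of the longer Taf4 KO lists than in WT. Cry2 (chr2:92243803-92274200, minus strand) had a -log10 q of 15.5 in WT against 3.94 at 1 week and 12.8 at 5 weeks, at percentiles 90.8, 79.0 and 89.6. Its peak was 1621 bp wide in WT and 1364 bp at 1 week, with a separate peak inside the gene, while at 5 weeks 1 peak of 2979 bp took in both. The inner of the pair was the stronger at 1 week, at percentile 90.8 against 69.3 in WT.

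Within Cry1, the intronic region with the pair of ROR elements (chr10:84624523-84624864) was not called in WT. It had a -log10 q of 3.06 at 1 week and 8.06 at 5 weeks, at percentiles 71.5 and 81.2, and both elements lay inside the peak at each time. Of all 5 weeks peaks, 0.455% held at least 2 ROR elements in their central 300 bp and 8.65% at least 1. Within Cry2, a region 9443 bp into the gene (chr2:92263598-92265915) was 1 peak of 2273 bp in WT at percentile 79.2. In the Taf4 KO lists it was a pair of narrower peaks, the stronger at percentile 87.4 at 1 week and 96.8 at 5 weeks. Its 2 E-boxes lay in a peak in every list, and its 3 ROR elements, between the pair, only in the WT peak. Cry2 also had 5 regions called at 5 weeks alone.

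Nr1d1 showed the largest difference in extent among the 10 promoters at 1 week. Its promoter peak (gene at chr11:98629246-98636647, minus strand) ran from -370 to 2460 bp relative to the start in WT and from -372 to 2534 bp at 5 weeks. At 1 week it ran only from -237 to 152 bp. The width was 2831 bp, 390 bp and 2907 bp in the WT, 1 week and 5 weeks lists, and the 1 week width was 0.138 of the WT width. All 5 E-boxes of the WT peak, its D-box and its ROR element lay outside the 1 week peak, and all lay inside the 5 weeks peak. The fold over background was 3.25, 3.36 and 3.19, with percentiles of 90.4, 85.9 and 91.4. Of all genes with a promoter peak in the 3 lists, 15.8% had a 1 week peak under 0.5 of the WT width, and of the clock genes 2 of 10, Nr1d1 and Per3. At 5 weeks 1.92% had, and 0 of 10 clock genes.

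Upstream of Nr1d1 the same libraries differed in a call. A peak centred 8110 bp before the start (chr11:98644361-98645152) lay outside the promoter windows of coding genes and held 1 E-box. In WT it stood at percentile 98.04 with a -log10 q of 25.4. It was not called at 1 week, and at 5 weeks it stood at percentile 98.5 with a -log10 q of 26.7. Of 120 WT peaks away from promoters and within 10 kb of coding genes that ranked at least as high, 3 were not found at 1 week and 0 at 5 weeks. The peak upstream of Nr1d1 is itself among the 120 and among the 3. The cutoff was set at its own rank, and the set was not matched for GC content. The whole Nr1d1 locus thus had 390 bp of called chromatin at 1 week, against 3521 bp in WT and 3633 bp at 5 weeks.

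Nr1d2 (chr14:19036568-19071641, minus strand), which encodes the related receptor, did not share this pattern. Its promoter peak was 1538 bp wide in WT, compared with 1549 bp at 1 week and 1560 bp at 5 weeks, and held the 3 E-boxes in every list. The -log10 q was 24.6, 11.3 and 25.4, at percentiles 97.7, 95.9 and 98.2, the highest ranked clock promoter in WT and at 5 weeks. A region 4854 bp into the gene (chr14:19066535-19067039) was called at 1 and 5 weeks, at percentiles 76.6 and 73.6, and not in WT.

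Dbp (chr7:52960458-52965525, plus strand), the output gene, had the weakest clock promoter in WT and at 5 weeks. The -log10 q was 9.14 in WT against 4.30 at 1 week and 6.96 at 5 weeks, at percentiles 78.1, 81.0 and 78.4, and the width 1835 bp, 1239 bp and 1558 bp. Its folds of 2.52, 2.92 and 2.31 were the lowest of the members in WT and at 5 weeks. The region within Dbp that holds the 2 E-boxes (chr7:52962369-52963305) had a -log10 q of 6.56 in WT and 2.91 at 5 weeks and was not called at 1 week. A region closer to the end of the gene (chr7:52964326-52964951) was called in every list, at percentiles 65.1, 74.2 and 92.2.

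**Figure D2:**
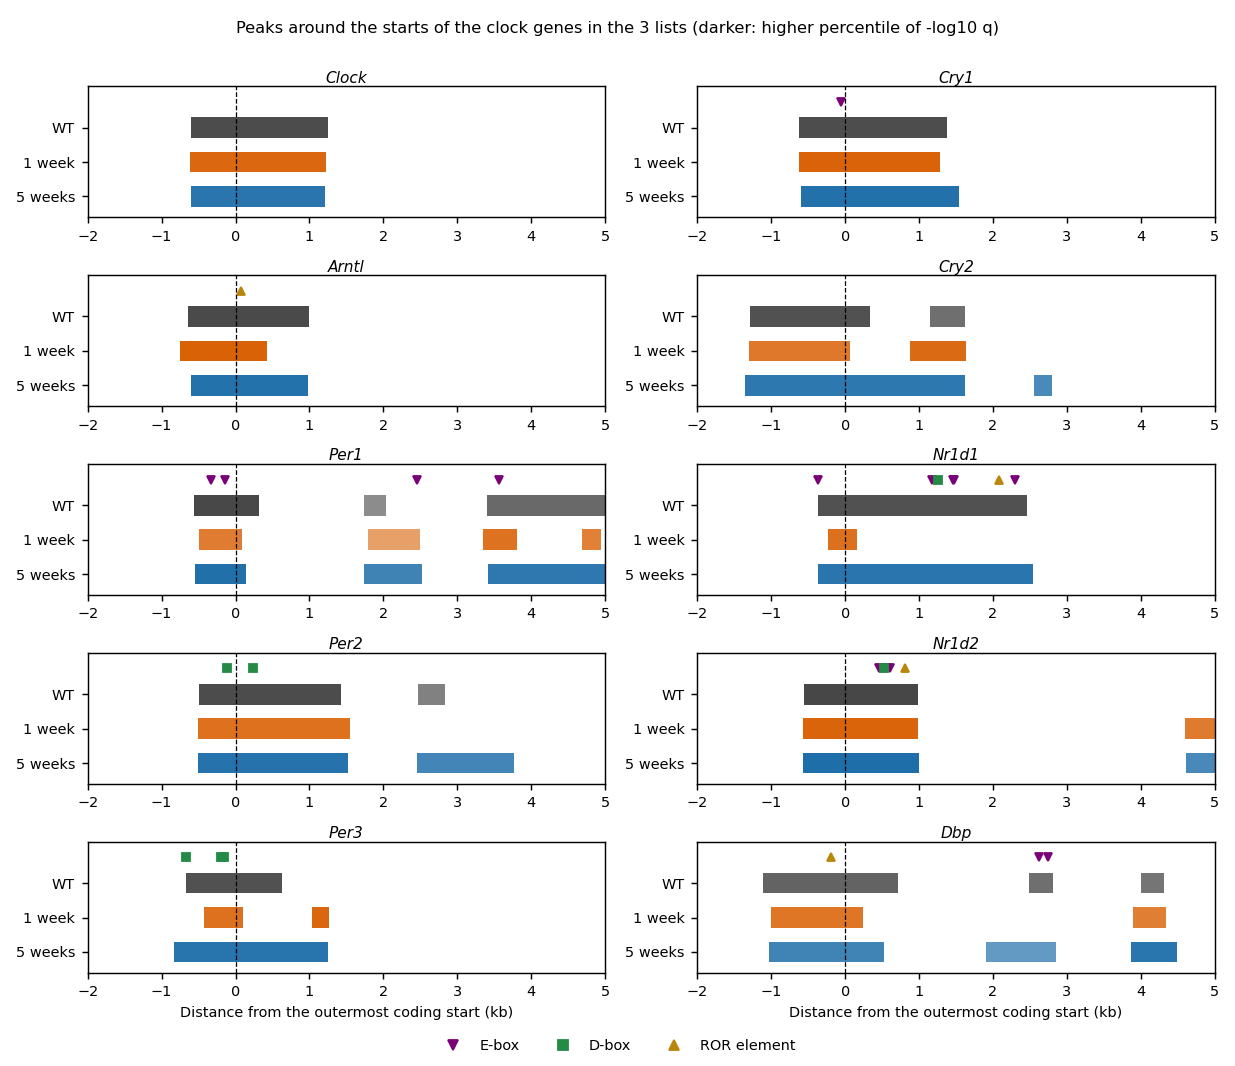
Peaks from 2 kb before to 5 kb after the outermost coding start of each clock gene (horizontal axis, distance in kb), with 1 row per library, darker bars for higher percentiles and markers for the E-boxes, D-boxes and ROR elements found in peaks. The 1 week bar of Nr1d1 spans 390 bp and misses all 5 E-boxes that the WT and 5 weeks bars cover, while the bars of Clock and Nr1d2 have nearly the same ends in all 3 rows.

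Over the members, the differences in rank were larger at 1 week than at 5 weeks. The percentile was lower than in WT at 7 of 10 clock promoters at 1 week, where 40.1% of the 11261 genes with a promoter peak in all lists were lower, and at 5 of 10 at 5 weeks, where 19.4% were lower. At 1 week the change from WT ranged from -13.0 percentage points at Per1 to 3.01 at Cry1. The median was -3.31 against 2.01 for all genes. The Per1 value sets the WT peak at the outermost start against the 1 week peak at an inner start. Its peak over the outermost start stood at percentile 97.4 in WT and 75.4 at 1 week. At Per3 and Cry2 the direction at 1 week depends on which peaks touch the promoter window. A separate 1 week peak further inside the gene, beyond that window, stood at percentile 93.5 at Per3 and 90.8 at Cry2. The WT promoter peaks of these genes stood at 90.4 and 90.8. At 5 weeks the change from WT ranged from -3.18 at Clock to 2.002 at Per3, with a median of 0.0852 against 4.75. A gene that ranks high in WT has little room above it. In the WT rank group that held 7 of the 10 members, 54.04% of genes were lower at 1 week and 26.6% at 5 weeks. Beside the median of their own rank group, 7 of 10 members were lower at 1 week and 9 of 10 at 5 weeks.

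The direction depended on the measure. Ranked by fold in place of -log10 q, all clock promoters but Per3 stood higher at 1 week than in WT and all 10 stood higher at 5 weeks, where 69.5% and 86.4% of genes did. The fold itself was lower than in WT at 6 of 10 members at 1 week and at 10 of 10 at 5 weeks, against 83.3% and 76.6% of genes. Promoter peaks were narrower than in WT at 8 of 10 members at 1 week and 4 of 10 at 5 weeks, against 65.4% and 36.3% of genes. Ranked among promoter peaks only, 8 of 10 members were lower at 1 week and 10 of 10 at 5 weeks, against 47.2% and 37.6% of genes.

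GC content moved with these values. Over all genes, sorted into 5 groups by GC content within 1 Mb around the start, the share of WT promoter peaks absent at 1 week went from 2.84% in the most GC-poor group to 30.7% in the most GC-rich one, and the median change of percentile from 6.20 to -1.70. The median width at 1 week relative to WT went from 1.07 to 0.639. At 5 weeks the absent share lay between 1.33% and 2.50% and the median relative width between 1.04 and 1.06. Of the clock genes, 3 fell in the most GC-rich group (Dbp and the members with the narrowed 1 week peaks, Nr1d1 and Per3), 3 in the next (Per1, Per2 and Cry2) and 0 in the most GC-poor one. The 3 members with the lowest change at 1 week, Per1, Cry2 and Per2, lay at 47.5%, 47.1% and 47.8% GC. Dbp, the most GC-rich at 50.6%, was higher by 2.93 points. Compared with the median of their own GC group, 7 of 10 members were lower at 1 week and 10 of 10 at 5 weeks. The part of GC content and of depth in the differences at the clock genes was not tested.

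**Figure D3:**
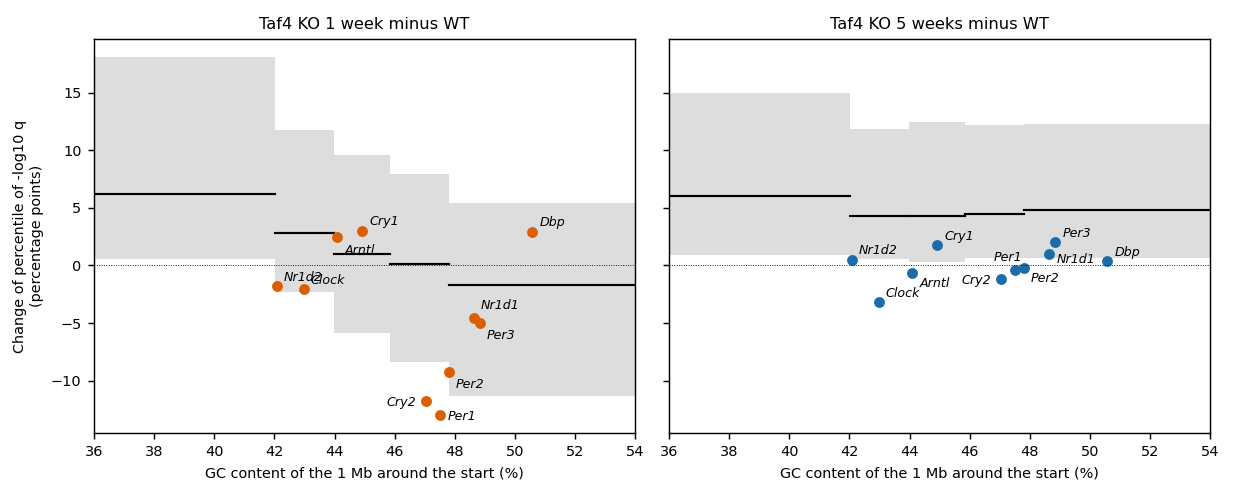
Change from WT in the percentile of the promoter peak (vertical axis, percentage points) against the GC content of the 1 Mb around the start (horizontal axis, %), with 1 point per clock gene; black lines and grey bands give the median and the interquartile range of all genes in each GC group. At 1 week the group medians step down from 6.20 to -1.70, and Per1, Cry2 and Per2 lie lowest. The 1 week point of Per1 sets a peak at an inner start against the WT peak at the outermost one. At 5 weeks all 10 points lie below their group medians.

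The whole loci, 630884 bp in all, held 42 peaks in WT, compared with 38 at 1 week and 57 at 5 weeks. These peaks covered 41430 bp, 27543 bp and 52347 bp. The median over the members was 0.681, 0.592 and 0.878 peaks per 10 kb, beside 0.414, 0.445 and 0.625 over the loci of all coding genes. Within the gene bodies alone the counts were 31, 33 and 41, so the lower count at 1 week than in WT held only with the flanks. Merged over the lists, the peaks formed 60 regions. Of these, 11 lay at a promoter of the member, 33 within the gene, 6 at the promoter of a neighbouring gene and 10 elsewhere in the flanks, and 29 of the 33 within the gene were intronic by their midpoint.

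Of the 60 regions, 27 (45%) were called in all 3 lists, against 25.2% of the regions within 10 kb of any coding gene. WT and 5 weeks, but not 1 week, shared 12 (20%), against 7.84%. None was shared by WT and 1 week alone, where the share over all genes was 0.450%. The Taf4 KO lists shared 5 regions (8.33%, against 14.0%), 12 were called at 5 weeks alone (20%, against 25.6%), 2 at 1 week alone (3.33%, against 19.6%) and 2 in WT alone (3.33%, against 7.28%). All 11 promoter regions were in the group called in every list, so the differences in calls lay within the genes and in the flanks.

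**Figure D4:**
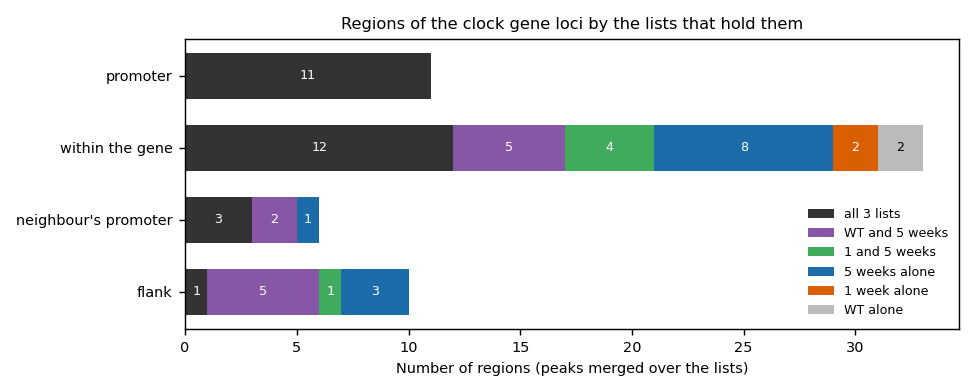
Number of regions (horizontal axis, peaks merged over the lists) in the loci of the clock genes, by where they lie (rows) and by which lists hold them (colours). All 11 promoter regions are in all 3 lists, whereas of the 33 regions within the genes 12 are, and 5 are in WT and at 5 weeks and missing at 1 week.

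Of the 42 WT peaks in the clock loci, 28 were overlapped by a peak at 1 week, or 66.7% (exact 95% interval 50.5 to 80.4), against 62.6% of WT peaks within 10 kb of any coding gene. At 5 weeks 40 were, or 95.2% (83.8 to 99.4), against 81.1%. Away from promoters, 14 of 26 were found at 1 week (53.8%, against 53.2%) and 24 of 26 at 5 weeks (92.3%, against 74.4%). In the share of WT peaks found again, the clock loci at 1 week were thus close to the background of all genes. Shares of regions, such as those in WT and at 5 weeks but missing at 1 week (20%, against 7.84%), have another denominator. It includes regions not called in WT, such as those called at 1 week alone (3.33%, against 19.6%). Such region shares therefore do not compare the loss of WT peaks. These intervals cover the counting of peaks only.

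**Figure D5:**
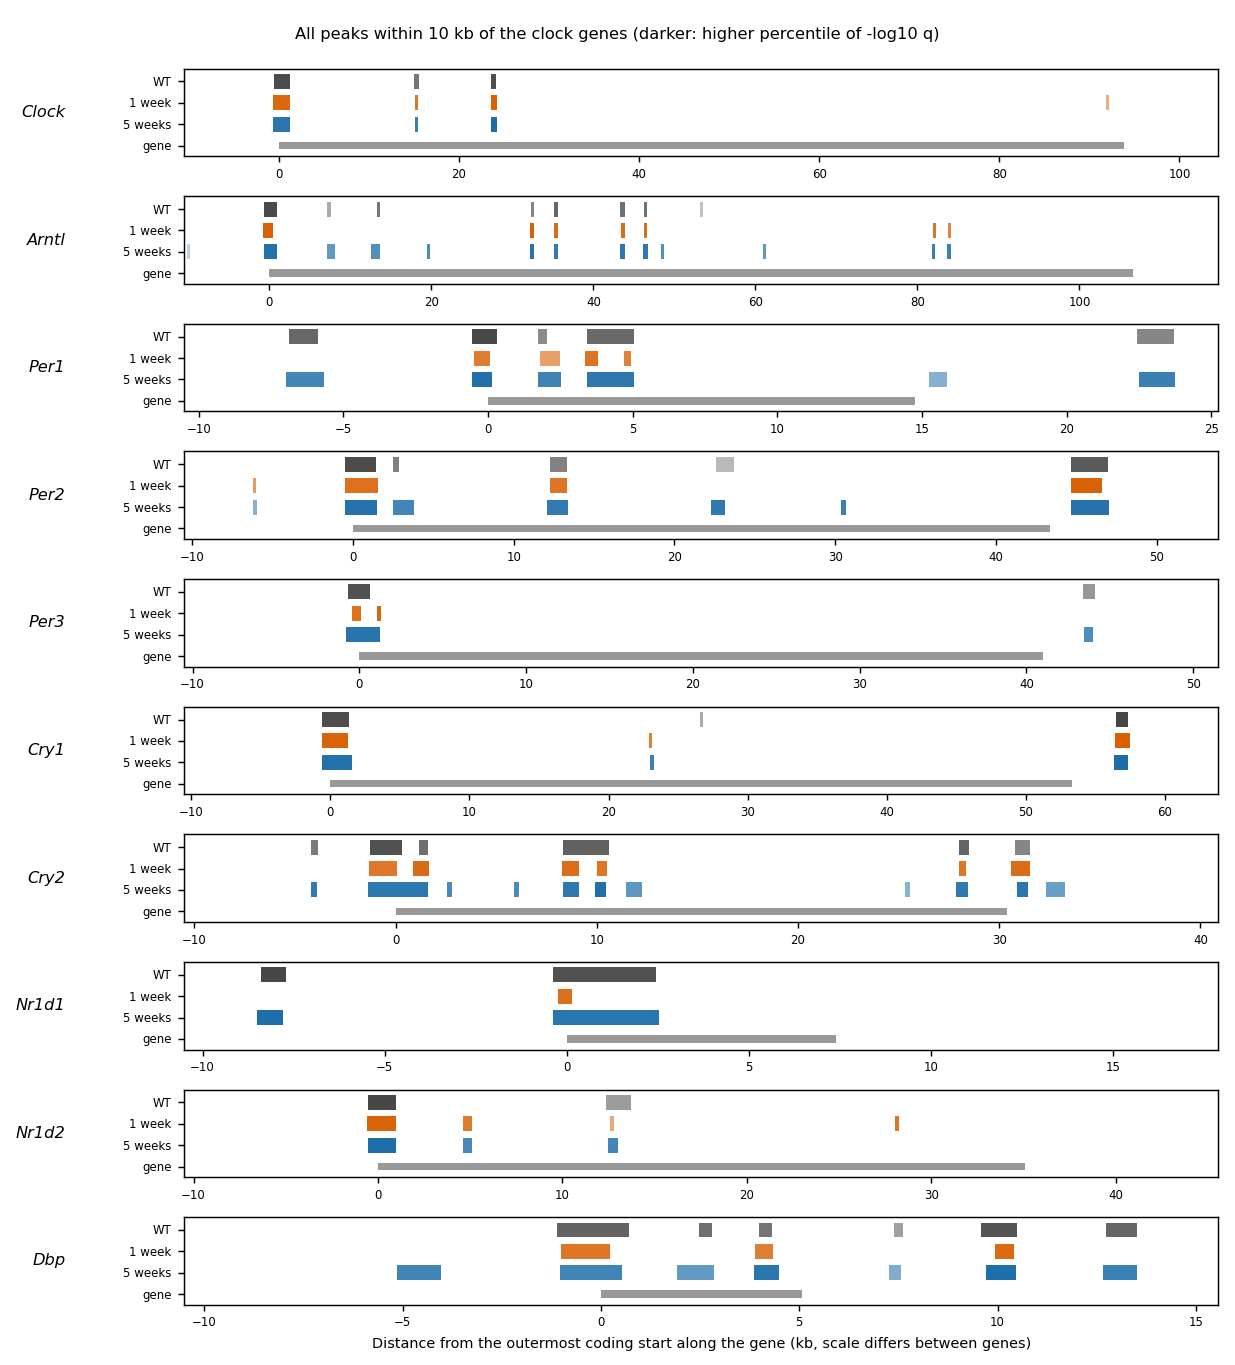
All peaks in the loci of the 10 clock genes along the gene (horizontal axis, kb from the outermost coding start, with its own scale for each gene), with 1 row per library above the grey gene body and darker bars for higher percentiles. The peak 8110 bp before Nr1d1 is present in WT and at 5 weeks and missing at 1 week, and the Clock intron peak at 23874 bp is present in all 3 rows.

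The elements themselves followed the peaks. WT peaks in the clock loci held 20 E-boxes, of which 10 lay in a peak at 1 week and 20 at 5 weeks. Of the E-boxes in WT peaks near any coding gene, 53.8% and 82.4% did. Outside the 1 week peaks were all 6 E-boxes of the Nr1d1 locus and all 3 of the Dbp locus, with 1 at the neighbour of Per2. The D-boxes numbered 6 in WT peaks, 5 of them in 1 week peaks and 6 in 5 weeks peaks, against 57.2% and 77.5% of all D-boxes. The ROR elements numbered 13, with 7 in 1 week peaks and 10 in 5 weeks peaks, against 49.3% and 73.4%. The shares for E-boxes and ROR elements at 1 week thus lay near those of all genes.

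A further 24 genes that modify or follow the clock (kinases, ubiquitin ligases, further receptors and output factors) were called at the promoter in 24, 21 and 24 cases in the WT, 1 week and 5 weeks lists. The 3 without a 1 week call were Hlf, a D-box factor related to Dbp, Csnk1d, a kinase that phosphorylates Per proteins, and Timeless, a protein of the replication fork. Their WT percentiles were 53.4, 68.0 and 84.6 and those at 5 weeks 73.3, 63.6 and 77.5. Of the 21 genes called in all lists, 7 stood below their WT percentile at 1 week and 7 at 5 weeks, with median changes of 1.41 and 2.06 points. Over all genes the corresponding shares were 14.5% of those with a WT call absent at 1 week and, of those called in all lists, 40.1% and 19.4% below WT, with median changes of 2.01 and 4.75 points. Bhlhe41, one of them, was brought up by the study from footprints in these libraries and is not independent here. It stood at percentile 85.6 in WT against 84.1 at 1 week and 86.8 at 5 weeks.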

How the data were processed

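ATAC-seq libraries of dissociated mouse islet cells, 1 per group, were grouped by the genotype and time in their labels. The authors mapped reads to mm9 with Bowtie 1.0.0, keeping reads with a unique place, and called broad peaks per library with MACS2 2.1.1 after bcl2fastq 2.17.1.14, per the submitters' processing notes. No control library, duplicate removal or insertion shift was stated, and reads were not used here. Per the labels and file layout, the deposited columns are the fold over local background (a ratio), the -log10 p-value and the -log10 q-value of each peak. The whole-number score the authors also deposited was not used. The fold and the -log10 values depend on the depth and background of their own list, so peaks were compared by rank within their own list.

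Peaks on chromosomes 1 to 19, X and Y were kept, leaving out 2 mitochondrial peaks per list. Genes came from the GENCODE annotation of NCBIM37, the same build as mm9. Each member was represented by its strongest peak at any coding start, and distances run from the outermost start. Peaks counted as found again from 1 bp of overlap. Read totals are not in peak lists. Background depth was recovered from fold and p of each peak as the first percentile of the list, assuming equal read extension, and the step was checked on simulated data. Exact binomial 95% intervals cover counting only. No test between groups was possible with 1 library each. All 10 members are named, with the other 24 clock genes as counts and names where their call differed between lists. The members, lists and motifs were chosen with earlier results of these data known, and single regions were picked for description after their values were seen. Alternatives varied the q threshold, list size, promoter window, locus flanks, starts used, overlap and the measure ranked. Scripts used Python 3.11.15, pandas 2.3.3, numpy 2.4.6, scipy 1.17.1 and pysam 0.24.0.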

Additional observations from a re-analysis of the deposited data

Results flagged for a closer look

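At 4 clock genes the percentile of the promoter peak differed from WT in opposite directions at 1 and 5 weeks. Each group had 1 library, and the differences were not tested. The change of percentile was 2.44 points at 1 week and -0.646 at 5 weeks for Arntl, -4.97 and 2.002 for Per3, -4.53 and 0.967 for Nr1d1, and -1.80 and 0.501 for Nr1d2. At 4 genes the width relative to WT lay on opposite sides of 1, also not tested. It was 0.4005 at 1 week and 1.61 at 5 weeks for Per3, 0.9502 and 1.07 for Cry1, 0.841 and 1.84 for Cry2, and 0.138 and 1.03 for Nr1d1. Both contrasts share the WT library.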

How the results depend on the processing

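All 10 members had a promoter peak in every list under a -log10 q of at least 3, lists of equal number or equal covered length, a window of 2000 bp before to 500 bp after the start, the outermost start only, and 100 bp of overlap. At a -log10 q of at least 5, 8 members had one at 1 week, and 2, Cry2 and Dbp, counted as absent there. Peaks in the loci at 1 week numbered 20 at that threshold, an alternative added after the data were seen, in place of 38. With 50% reciprocal overlap the WT peaks found again were 50% at 1 week and 76.2% at 5 weeks, since peaks of unequal width then no longer count. Ranked by fold, the members' median percentile was 70.5, 86.6 and 86.6 in WT, 1 week and 5 weeks, and among promoter peaks alone it was 75.9, 44.3 and 64.4, so the fold turned the direction. The pileup over background recovered from the lists had a median of 4.01, 3.65 and 3.68. The region patterns moved too: those called in WT alone were 5 with lists of equal number and 6 with equal covered length, in place of 2, and those at 5 weeks alone 8 and 5, in place of 12, but 16 at a -log10 q of at least 5, where 17 regions, in place of 27, were in every list. No replicate could be left out, since each group had 1 library, and depth cannot be told apart from group. No paired analysis was possible because each group had 1 library.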

Other observations

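Peaks in the clock loci also lay at promoters of neighbouring genes. Beyond the end of Cry1, the promoter of Mterfd3 (chr10:84590295-84591472), a mitochondrial transcription termination factor gene, had the highest ranked peak of all the clock loci, at percentile 99.0 in WT, 99.7 at 1 week and 99.7 at 5 weeks. Beyond Per2, the promoter of Hes6, a transcriptional regulator gene of the Hes family, stood at percentiles 84.7, 97.6 and 94.2. The promoter of Vamp2, which encodes a vesicle protein of exocytosis, lies before Per1 and was called at percentile 74.7 in WT and 76.4 at 5 weeks, with no call at 1 week. Near Dbp, the region shared by the promoters of Rpl18 and Sphk2 at chr7:52970037-52970935 was called in all lists at percentiles 89.1, 91.6 and 98.6, and the one at chr7:52973117-52973980 in WT and at 5 weeks at 75.5 and 80.7. The promoter of Mapk8ip1, beyond Cry2, was touched at 5 weeks alone, at percentile 53.6.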
